A study of Mus musculus with 2 samples.

Results

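The inner root sheath is the sleeve of keratinocytes that surrounds the growing hair shaft and breaks down before the hair leaves the skin. Its genes described here were chosen by name: the type I keratins Krt25, Krt26, Krt27 and Krt28, the type II keratins Krt71, Krt72 and Krt73, the trichohyalin gene Tchh, and Padi3. The array held 18206 genes that could be named. Of these 9 genes, 6 had a probe whose RefSeq accession maps to them, with 7 probes in all, and all 6 were measured on both arrays. No probe mapped to Krt28, Krt72 or Krt73, which were not analysed here.

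The study compared mouse epidermis in the steady state between 2 genotypes, with 1 one-colour Agilent array each. The control was Nfkbiz flox/flox. The knockout was Nfkbiz flox/flox; K5-cre, in which Cre under the keratin 5 promoter, active in basal keratinocytes and the outer root sheath, is meant to remove IκBζ, a nuclear regulator of NF-κB and the product of Nfkbiz. Both genotypes carry the floxed alleles, and no Cre-only control was analysed here. Skin was treated with ammonium thiocyanate and the epidermis was peeled off, so follicle parts that came away with it are in the sample. Neither the age, body site and hair cycle stage of the mice nor the number of mice behind each RNA is stated in the sources used here.

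In a growing follicle the matrix forms the hair shaft and, around it, the inner root sheath with its cuticle, Huxley's layer and Henle's layer. Each keratin filament is built from a type I and a type II keratin. Trichohyalin fills the granules of the sheath, Padi3 (a peptidylarginine deiminase) converts its arginines to citrulline, and transglutaminases crosslink it to the filaments. Mutations in Krt25, Krt27 and Krt71 give wavy coats in mice, and human TCHH and PADI3 variants are known from uncombable hair.

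The sequences upstream of the 6 measured genes were chosen for display after the values were seen. In those values 5 of the genes were at least 2-fold lower on the knockout array and Krt26 was not. Whether the letters bear on the differences was not tested. Each line holds the 250 bases before the annotated start, 5′ to 3′ on the gene's strand, from RefSeq with build GRCm38.p6. Capitals mark AGATAA, a form of the GATA site searched on both strands, and TATAAA, the TATA box, searched on the gene's strand only.
Krt25, chr11:99322952-99323201, minus strand: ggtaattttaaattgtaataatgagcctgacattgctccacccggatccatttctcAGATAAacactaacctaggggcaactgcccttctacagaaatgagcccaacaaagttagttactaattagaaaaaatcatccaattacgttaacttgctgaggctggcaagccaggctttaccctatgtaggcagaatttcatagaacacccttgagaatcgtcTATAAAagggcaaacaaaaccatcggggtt
Krt27, chr11:99351119-99351368, minus strand: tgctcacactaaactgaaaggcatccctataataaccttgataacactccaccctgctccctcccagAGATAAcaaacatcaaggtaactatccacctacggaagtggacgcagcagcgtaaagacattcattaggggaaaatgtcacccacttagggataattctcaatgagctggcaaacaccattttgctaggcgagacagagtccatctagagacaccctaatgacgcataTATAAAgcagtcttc
Krt71, chr15:101743098-101743347, minus strand: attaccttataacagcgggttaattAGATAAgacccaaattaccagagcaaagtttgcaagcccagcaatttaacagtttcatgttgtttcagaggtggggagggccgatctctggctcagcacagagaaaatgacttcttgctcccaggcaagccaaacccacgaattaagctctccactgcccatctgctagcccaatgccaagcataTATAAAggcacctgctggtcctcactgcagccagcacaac
Tchh, chr3:93442080-93442329, plus strand: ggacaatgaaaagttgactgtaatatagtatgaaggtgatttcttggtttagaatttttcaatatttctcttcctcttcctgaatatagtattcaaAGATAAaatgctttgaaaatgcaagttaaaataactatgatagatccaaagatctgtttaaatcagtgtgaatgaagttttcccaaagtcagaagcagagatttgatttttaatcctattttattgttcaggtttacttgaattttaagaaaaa
Padi3, chr4:140810649-140810898, minus strand: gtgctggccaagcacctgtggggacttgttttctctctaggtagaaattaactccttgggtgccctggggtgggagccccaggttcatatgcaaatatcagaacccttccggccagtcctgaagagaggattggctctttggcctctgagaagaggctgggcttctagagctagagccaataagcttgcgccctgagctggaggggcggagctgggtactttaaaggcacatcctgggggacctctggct
Krt26, chr11:99337966-99338215, minus strand: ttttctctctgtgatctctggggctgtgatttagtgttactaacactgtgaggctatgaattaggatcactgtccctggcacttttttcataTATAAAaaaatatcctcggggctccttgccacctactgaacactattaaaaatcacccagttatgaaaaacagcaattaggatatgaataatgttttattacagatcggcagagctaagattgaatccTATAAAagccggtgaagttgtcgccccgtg

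AGATAA was found upstream of Krt25, Krt27, Krt71 and Tchh, and of Krt73 among the genes without a probe. Of all 32851 promoter windows of this length, 9.99% held it. The matches began 194 bases before the start in Krt25, 183 in Krt27, 225 in Krt71 and 154 in Tchh. The windows of Padi3 and Krt26 did not hold these letters. TATAAA was found in all 4 measured keratins and in 7.59% of all windows. It began 30 bases before the start in Krt25, 15 in Krt27 and 40 in Krt71, and Krt26 held it at 30 and at 158 bases. The other 8 motifs were searched on both strands. The homeodomain form TAATTA was upstream of Krt25, Krt28, Krt71 and Krt73 (4.84% of all windows), and CAATTA upstream of Krt25, Krt26, Krt28 and Krt73 (7.17%). CCAAT was upstream of Krt25, Krt28, Krt71, Krt72 and Padi3 (33.8%), and in Krt25 and Krt28 it overlaps CAATTA. The LEF/TCF forms CTTTGAA and CTTTGTT were upstream of Tchh (4.46%) and Krt25 (5.03%) respectively. None of the 9 windows held TGANTCA, the AP-1 site (6.75%), ATCGAT, a CUX form (0.728%), or the NF-κB form GGGA and TTCC parted by 2 bases (1.21%). A match describes letters and not a bound site.

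Signals of 5 of the 6 measured genes were at least 2-fold lower on the knockout array and none was at least 2-fold higher. Of all 12397 named genes above background on both arrays, 4.4% were lower and 3.02% higher by that limit. Of the 5321 with a mean signal of at least 500, these shares were 3.4% and 2.12%. The median log2 difference, knockout minus control, was -1.28 over the 6 genes and -0.04 over all genes. Median scaling of the arrays moved the median of all genes to 0.28, and then 2 of the 6 were at least 2-fold lower, against 2.38% of all genes lower and 7.69% higher. Changing between these scalings shifts all genes alike. Relative to the median gene, the median of the 6 was thus bound to be the same under both, at -1.24. Genes that were lower made up 59.3% of those 2-fold apart in the main scaling and 23.6% with median scaling. The limit also matters: at 1.5-fold 5 of 6 were lower (13.2% of all genes, with 10.1% higher), and at 3-fold 0 were (1.52%, with 0.847% higher).

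With 1 array per genotype, there was no replicate to check a difference against, and no test was made. The errors after ± come from the scanner software's error model, cover technical error within an array, and are mostly a fixed share of the signal. Spots of a probe were averaged, so a probe with repeated spots has a smaller error, as the 0.06 of Msx2 and Bmp4 below. That smaller error covers no difference between mice. In bulk tissue, fewer sheath cells and less RNA per cell cannot be told apart.

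Krt25 and Krt27 are type I keratins of all layers of the sheath. For Krt27 the processed signal was 3520 ± 352 in the control and 1430 ± 143 in the knockout. Its log2 difference after scaling was -1.52 ± 0.20, or 2.87-fold lower, the lowest of the 6, and 1.66% of all measured genes were at or below it. For Krt25 the signals were 2260 ± 226 and 1230 ± 123, a log2 difference of -1.10 ± 0.20, or 2.14-fold lower. The 95% interval from the error model for Krt25, -1.5 to -0.7, spans the 2-fold limit. So do those of Krt71 and Padi3, each -1.68 to -0.88, and of Tchh, -1.76 to -0.96. Only that of Krt27, -1.92 to -1.12, lies wholly beyond the limit. Krt25 was under 2-fold with median scaling (-0.78), no scaling (-0.88) and normexp background correction (-0.97).

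Krt26, a type I keratin of the sheath cuticle, stood apart from its relatives. Its signal was 73.4 ± 7.77 in the control and 83.5 ± 8.70 in the knockout, well above the lowest signals counted as above background, 12.7 and 12.1. The knockout signal was the higher before scaling. Its log2 difference was -0.04 ± 0.21 in the main scaling and 0.28 with median scaling, so its sign depends on the scaling. Its gap to Krt27 was 1.49 ± 0.30 and its gap to Krt25, written as Krt25 minus Krt26, was -1.06 ± 0.30. A constant factor between arrays leaves both gaps unaltered.

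Krt71 is the main type II keratin of the sheath and is made in all its layers. Its signal was 16900 ± 1690 in the control and 8120 ± 812 in the knockout. The log2 difference was -1.28 ± 0.20, or 2.43-fold lower, and 2.6% of measured genes were at or below it.

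Tchh, at its brighter probe, had a signal of 8590 ± 859 in the control and 3900 ± 390 in the knockout. The log2 difference was -1.36 ± 0.20, or 2.57-fold lower. A second Tchh probe was dim, at 22.6 ± 3.57 and 11 ± 2.82, and was not well above background in the knockout. Its signals were ordered in the same way as those of the brighter probe.

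Padi3, the deiminase that acts on trichohyalin, had a signal of 679 ± 68 in the control and 326 ± 32.7 in the knockout. The log2 difference was -1.28 ± 0.20, or 2.43-fold lower. Tchh minus Padi3 was -0.08 ± 0.29 in log2 difference, a gap within its error.

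**Figure D1:**
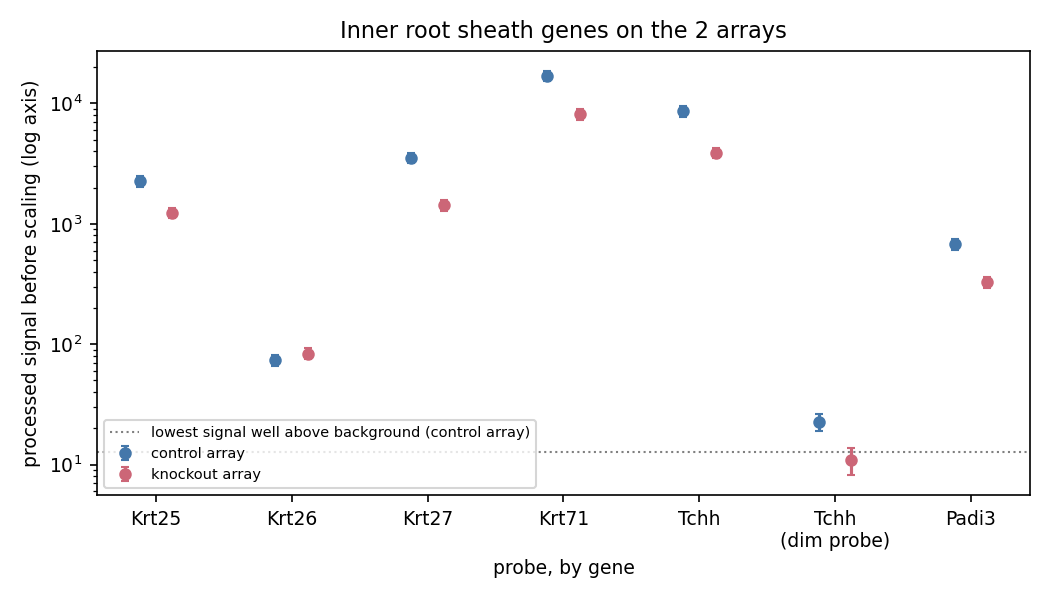
Processed signal before scaling (log axis) of the 7 probes of inner root sheath genes on the control and knockout arrays, 1 array each; error bars are the scanner software's errors and the dotted line is the lowest signal well above background on the control array. The control point lies above the knockout point for every probe but that of Krt26, at 73.4 against 83.5, whose scaled difference changes sign with the scaling.

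The 5 genes at least 2-fold lower had log2 differences from -1.52 to -1.1, a spread of 0.42. The standard error of the gap between any pair of them was 0.29. The 2-fold limit that picked them also caps this range, and over all 6 measured genes the values ran from -1.52 to -0.04. The 5 lower genes lie on chromosomes 11 (Krt25 and Krt27), 15 (Krt71), 3 (Tchh) and 4 (Padi3).

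A defect in one area of an array would shift neighbouring spots together, so the spots within 3 rows and 3 columns of each probe were examined. For the 6 representative probes, the median log2 difference of the other measured spots lay between -0.29 at Padi3 and 0.00 at Krt27. Around Tchh, 4 of 21 such spots were at least 2-fold lower, the most for any probe, and their median was -0.21. Of all measured genes, 4.4% were lower by that limit. Whether a local defect touches the Tchh probe was not tested. None of the 7 probes was near a spot marked as non-uniform, and no spot on either array was saturated.

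**Figure D2:**
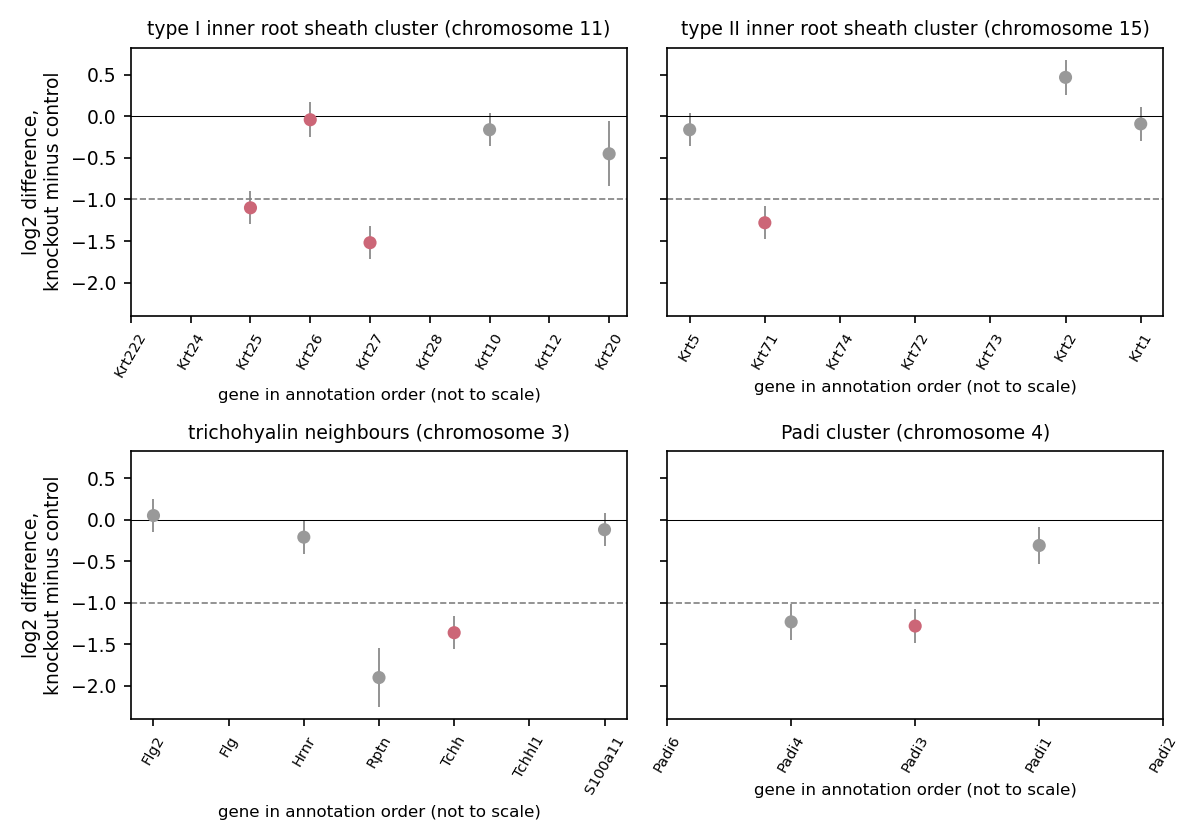
Log2 difference, knockout minus control, of genes in annotation order (not to scale) around the type I keratins on chromosome 11, the type II keratins on chromosome 15, Tchh on chromosome 3 and Padi3 on chromosome 4; red points are inner root sheath genes, bars are error-model standard errors, and names without a point were not measured on both arrays. Krt26 at -0.04, a value whose sign changes with the scaling, sits between Krt25 at -1.1 and Krt27 at -1.52.

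Sheath keratins share clusters with keratins of the surface epidermis. On chromosome 11, Krt26 lies between Krt25 and Krt27, and Krt28 separates Krt27 from Krt10, the type I keratin of suprabasal epidermis, which differed by -0.16 ± 0.20. On chromosome 15, Krt71 adjoins Krt5, the type II keratin of basal cells, which differed by -0.16 ± 0.20. Beyond Krt73 lie Krt2, at 0.47 ± 0.21, and Krt1, at -0.09 ± 0.20. The values of Krt10, Krt5 and Krt1 were above 0 with median scaling. The neighbouring epidermal keratins were thus within 2-fold on both chromosomes.

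Tchh belongs to the fused-type S100 genes, some of which serve the cornified layer. Of 6 relatives, 3 were measured on both arrays and 1 was at least 2-fold lower. Rptn, the repetin gene next to Tchh, had signals of 58.5 and 18.3 and differed by -1.90 ± 0.35, or -0.66 with normexp. Flg2 (filaggrin family) differed by 0.05 ± 0.20, and Hrnr (hornerin) by -0.21 ± 0.20, the latter above 0 with median scaling. Tchhl1, on the other side of Tchh, was not well above background on either array.

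Transglutaminases and deiminases other than Padi3 were mixed, and the list was not limited to enzymes of the sheath. Of 11 in the list, 7 were measured on both arrays, 2 had signals at least 2-fold lower and 0 higher. With normexp neither passed that limit. Their median of -0.16 was 0.16 with median scaling. Padi4, next to Padi3, had signals of 112 and 55.8 and differed by -1.23 ± 0.22, with -0.89 at its other measured probe. Tgm2, the widely made tissue transglutaminase, had signals of 75.5 and 32.4 and differed by -1.44 ± 0.25. Tgm3, a transglutaminase that crosslinks trichohyalin, had signals of 66.4 and 76.1 and differed by -0.02 ± 0.22, while Tgm1 of the cornified envelope differed by -0.16 ± 0.20 and Padi1 by -0.31 ± 0.22. The signs of Tgm3, Tgm1 and Padi1 changed with the scaling.

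Factors and receptors known from sheath and matrix formation had no gene at least 2-fold apart among the 9 of 10 measured on both arrays, although Notch1 reached that limit with cyclic loess. Notch1 had signals of 880 and 513 and differed by -1.0 ± 0.20. Msx2, a homeodomain factor of the matrix, had signals of 513 and 305 and differed by -0.98 ± 0.06. Gata3, which is needed for the sheath in mice, had signals of 24200 and 19800 and differed by -0.51 ± 0.20. Lef1, which carries Wnt signals in the matrix, was above background in the control alone, at 28.1 against 14. Its observed value was 2.34-fold lower, with an error of 0.41 in log2 difference. The dim signal exceeds 12.1, the lowest counted as above background in the knockout, so this is no lower bound. Where a gene below is given as at least some fold lower, that lowest signal stands in for the dim one. The list's median of -0.14 was 0.18 with median scaling.

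Of 8 further sheath and follicle protease genes, 6 were measured on both arrays and 1 was at least 2-fold lower. This was Prss8, the protease prostasin, with signals of 847 and 446 and a difference of -1.15 ± 0.20, or -0.83 with median scaling. Gsdma, a gasdermin of follicle and epidermis, differed by 0.28 ± 0.20. The median of -0.03 was 0.29 with median scaling. Krt74, listed as a transcribed pseudogene in the RefSeq mouse table, had no mapped probe.

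**Figure D3:**
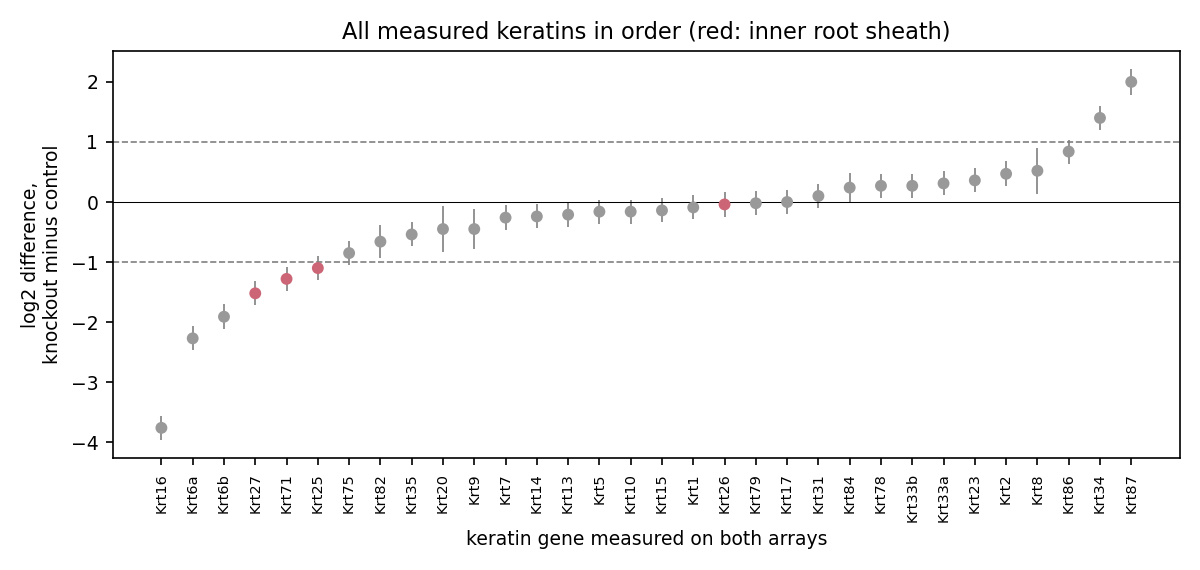
Log2 difference, knockout minus control, of the 32 keratin genes measured on both arrays, in order, with error-model standard errors; red points are inner root sheath keratins and dashed lines mark 2-fold. Krt27, Krt71 and Krt25 follow Krt16, Krt6a and Krt6b, and Krt26, whose sign changes with the scaling, lies at rank 19.

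Among all keratins, 3 of the sheath keratins lay near the low end. There were 32 keratin genes with a value in each genotype; 6 had signals at least 2-fold lower in the knockout, and Krt27, Krt71 and Krt25 held ranks 4, 5 and 6. Below them were Krt16 (-3.76 ± 0.20), Krt6a (-2.27 ± 0.20) and Krt6b (-1.91 ± 0.21), which are stress keratins. Next above was Krt75 of the companion layer, which adjoins the sheath, with signals of 2460 and 1590 and a difference of -0.85 ± 0.20. Krt16, Krt6a, Krt6b and Krt75 are in the companion layer and outer root sheath list, as is Krt17. Of the 9 keratins in that list, 3 passed 2-fold downwards and 0 upwards. The list's median of -0.24 was 0.08 with median scaling. Krt17 had signals of 36700 and 42800 and differed by 0.0 ± 0.20. Krt26 lay between Krt1 and Krt79. The median keratin differed by -0.15. Keratin sequences are alike, and cross-hybridisation between their probes was not tested.

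The keratins of the hair shaft, formed by the same matrix, lay on both sides of 0. Of 16 hair shaft keratins, 9 had a value in each genotype, and 2 of these were 2-fold higher or more and none lower by that much. Their median was 0.27, and it was above 0 in all 7 scalings. Krt34 had signals of 286 and 882 and differed by 1.40 ± 0.20, and Krt87 had 129 and 603 and differed by 2.0 ± 0.21. Krt35 of the cortex differed by -0.54 ± 0.20 and Krt82 of the shaft cuticle by -0.66 ± 0.27. Krt33b, whose value is the median of the list, had a second probe at -1.63 against 0.27 at the brighter one, so its direction is uncertain. The difference between sheath and shaft was not tested.

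Keratin-associated proteins surround the keratin filaments of the shaft. Among the 29 with a value in each genotype, 9 passed 2-fold upwards and 1 downwards, and their median of 0.32 was 0.07 with normexp. Krtap16-3 had signals of 91.8 and 1470 and differed by 3.78 ± 0.21, or 3.19 with normexp. Krtap14 had 22 and 400.0 (3.96 ± 0.28) and Krtap19-9b 21.5 and 372 (3.89 ± 0.29), with control signals near the floor of 12.7. With normexp these were 2.27 and 2.12, so the order of the 3 depends on the background treatment. The lower one was Krtap17-1, at -1.07 ± 0.21. Genes of this family are alike in sequence, and cross-hybridisation was not tested.

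**Figure D4:**
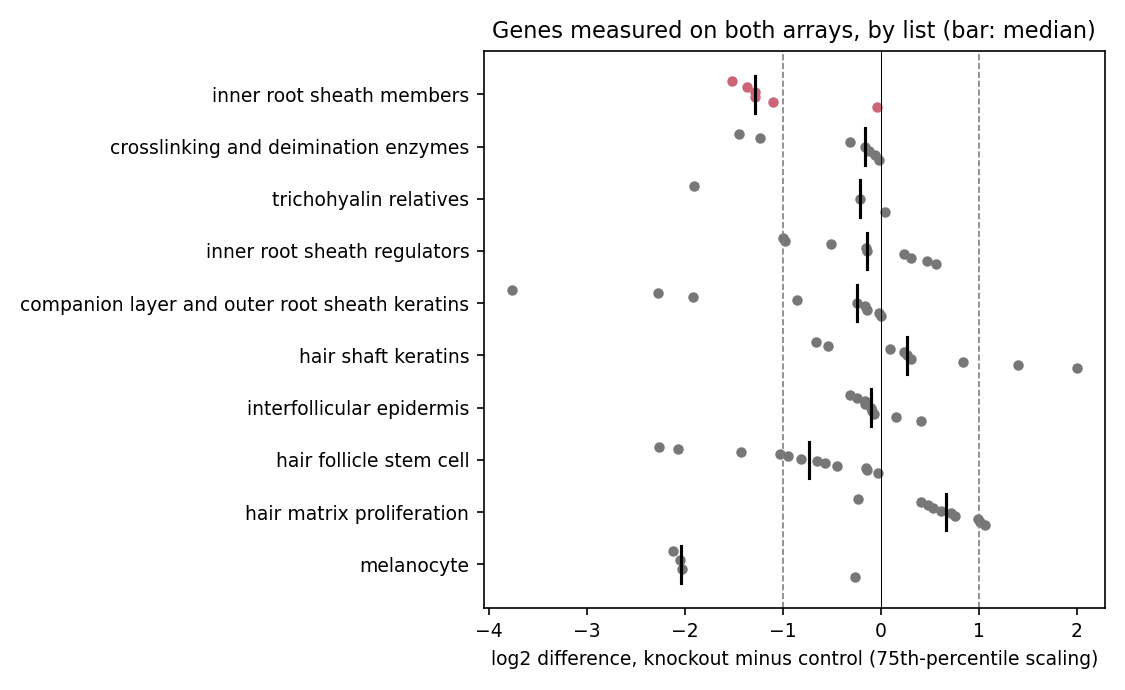
Log2 difference, knockout minus control, of genes measured on both arrays in 10 gene lists; each point is a gene, bars are list medians and dashed lines mark 2-fold. The inner root sheath median of -1.28 lies below 0 and the hair shaft median of 0.27 above it, while the medians of the enzyme, relative, regulator, companion layer and epidermis lists change sign with the scaling.

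Marker lists were used to check the tissue label and the other cells present. Of 10 interfollicular epidermis genes, 9 were measured on both arrays and none was 2-fold apart. Their median of -0.10 was 0.22 with median scaling. Krt5 had signals of 52200 and 54400, and Krt14 of 48500 and 47800. Keratinocytes were thus seen at high signal on both arrays.

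Markers of other follicle cells also differed. Follicle stem cell genes (12 of 13 measured, 4 at least 2-fold lower and none higher) had a median of -0.73 and summed signals of 52673 and 52388, mostly Krt15. The remaining gene, Lgr5, was above background in the control alone, at 48.3 against 12.4. Its observed value was 4.54-fold lower, with an error of 0.39 in log2 difference, and as for Lef1 this is no lower bound. Cell division genes, which mark any dividing cell, basal keratinocytes of the surface epidermis included, had 10 of 10 measured, a median of 0.67 and summed signals of 3754 and 6596. Of these, 2 were at least 2-fold higher, against 5 with median scaling and 0 with normexp, and their share from the hair matrix was not measured. Melanocyte genes (4 of 10, 3 lower) had a median of -2.04, or -1.14 with 2 lower under normexp, and summed signals of 1773 and 511, with Tyr not well above background on either array. Of 13 dermal papilla genes, 3 were measured on both arrays with differences of both signs: Bmp4, a secreted BMP ligand, had signals of 236 and 440 (0.69 ± 0.06), Alpl, the alkaline phosphatase, 31.2 and 17.5 (-1.06 ± 0.32), and Vcan, the proteoglycan versican, 17.6 and 22.7 (0.15 ± 0.39, below 0 with normexp). Alpl was within 2-fold in the other scalings. Crabp1, a retinoic acid binding protein gene, had signals of 94.2 and 3.15 and was at least 9.08-fold lower, and Wif1, which encodes a secreted Wnt inhibitor, had 42.2 and 8.81 and was at least 4.07-fold lower. Neither was well above background in the knockout, and the remaining 8, Corin and Sox2 among them, were so on neither array.

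Markers of cells outside the epithelium were lower too, in part. Skeletal muscle genes (6 of 8 measured, 4 lower) had a median of -1.88, or -1.16 with 3 lower under normexp, and summed signals of 1128 and 433. Red blood cell genes (4 of 8, all 4 lower) had a median of -3.32, or -2.31 with 3 lower under normexp, and summed signals of 18354 and 2133. Dermal fibroblast genes (6 of 8, none 2-fold apart) had a median of -0.23, which was 0.09 with median scaling, and summed signals of 2966 and 3046. The part of any of these cells in the lower sheath signals was not tested.

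Nfkbiz had signals of 3100 and 1760 and differed by -1.04 ± 0.20 at its single probe, whose place relative to the deleted part is not known here. On each array 56.3% of probes were well above background, and the 75th percentiles of signal were 205 and 239.

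**Figure D5:**
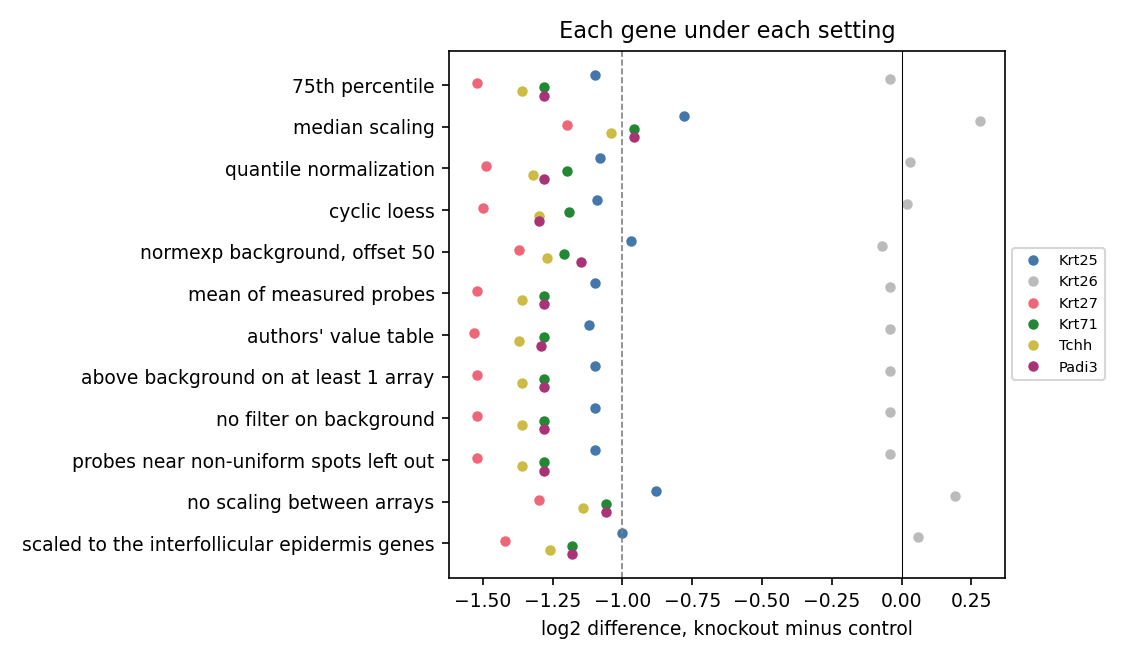
Log2 difference, knockout minus control, of the 6 measured inner root sheath genes under the main setting (75th percentile) and 11 alternatives; the dashed line marks 2-fold lower. Krt25, Krt27, Krt71, Tchh and Padi3 lie below 0 in every setting shown, and Krt26 lies on either side of 0.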

How the data were processed

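Per the file headers, the deposited scanner files hold spot intensity from Agilent Feature Extraction 10.7.3.1, background-subtracted and detrended within the array, on a design annotated on mm9. The pair of arrays shared a slide. The authors' deposited table holds log2 values centred per probe, and over 21606 probes its differences correlated with those of the scanner files (r 1.0). Both come from the same arrays, so this settles the direction of the columns but not levels, and is no independent check.

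Processed signals were divided by each array's 75th percentile over non-control spots and log2 transformed. Outlier spots were left out and spots of a probe averaged. A probe was measured when well above background and not saturated. Accessions in the RefSeq table of GRCm38.p6 named 64.8% of probes. The brightest probe stood for a gene, and calls were made at 2-fold. With 1 array per group no p-value was computed, and the number of arrays limits the precision. Alternatives were other scalings, normexp (offset 50, on median spot signals, fitted without non-uniform spots), the mean of probes, the authors' table, and other filters and folds. Software was R 4.3.3 with limma 3.58.1 and Python 3.11.15 with pandas 2.3.3, numpy 2.4.6 and matplotlib 3.10.9. The calling code was tested on simulated data.

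Genes and lists were chosen with earlier results of these data known. The naming rule took all sheath genes, Nfkbiz, list genes at least 2-fold apart or with the largest differences, and the keratins next in order. Further genes were named for their role or place after their values were seen, keratin-associated proteins among them.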

Additional observations from a re-analysis of the deposited data

How the results depend on the processing

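The 5 sheath genes at least 2-fold lower became 2 with median scaling and 0 at a 3-fold threshold. The count was 4 with normexp (1.92% of all genes lower and 1.46% higher). It was also 4 without scaling (2.83% and 5.75%) and with scaling to interfollicular epidermis genes (3.39% and 3.99%), and 5 otherwise. The last pair of scalings was added after seeing the data. No sheath gene was at least 2-fold higher in any alternative, and the median lay between -1.29 and -0.96. Of 11 alternatives, Krt27 and Tchh were at least 2-fold lower in 11, Krt71 and Padi3 in 10 and Krt25 in 7. Krt26 was below 0 in 6. The mean of probes and the changes of filter could not alter these values. Each gene had a single probe measured on both arrays, and none was near a non-uniform spot. These alternatives thus add no check on the sheath genes. Nor does the authors' table, which comes from the same arrays and correlated with the main differences at r 1.0. Of 12397 genes, 546 were at least 2-fold lower and 375 higher, against 295 and 953 with median scaling and 351 and 713 without scaling. With epidermis scaling these counts were 420 and 495. With normexp they were 238 and 181 of 12391 genes, and with no background filter 1421 and 668 of 18206. At 1.5-fold 1637 and 1255 were called and at 3-fold 188 and 105. The share of lower genes was 59.3%, against 45.9% with epidermis scaling, 33.0% without scaling and 68.0% with no background filter. Naming probes by a gene name column was not run, since the columns used here hold none. No paired analysis was possible because there is a single array for each genotype, and none could be left out. Signal over background limits the second Tchh probe, Lef1 and Lgr5.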

Other observations

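Sebaceous gland genes, of another part of the pilosebaceous unit, had 7 of 10 members measured on both arrays and none 2-fold apart. Their median was -0.38, and -0.06 with median scaling. Elovl3, a fatty acid elongase, had signals of 36.2 and 21.8 and differed by -0.95 ± 0.29. Scd1, a desaturase, had signals of 1900 and 3250 and differed by 0.55 ± 0.20, and Soat1, which esterifies cholesterol, differed by -0.43 ± 0.20.

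Among stem cell genes of the follicle, the transcription factor genes Tbx1 and Lhx2 were 4.78-fold and 4.19-fold lower, with signals of 754 and 184 for Tbx1 and of 931 and 259 for Lhx2. In the same list Krt15 differed by -0.14 ± 0.20, Fgf18 by -0.15 ± 0.21 and Tcf7l2 by -0.03 ± 0.21, and their signs changed with the scaling.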
